A study of Mus musculus with 6 samples.

Results

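Cytochrome P450 genes were followed in 6 mouse kidney arrays. Members were the rows of the deposited table with exactly 1 gene symbol of the form Cyp, family number, subfamily letter and member number. Cyp27b1 and Cyp24a1, the vitamin D hydroxylase genes, were set aside, and a symbol with more than 1 row was represented by its brightest row, judged by the mean of the 6 arrays. This gave 87 genes from 91 rows, in 14 families, among the 22180 genes tested. The arrays compared kidneys of mice aged 4 weeks, 3 labelled Cre-negative and 3 labelled Cre-positive, in a study of reduced Pals1 dose in the nephron. The labels name a conditional knockout line of Pals1/Mpp5 on a C56Bl/6 background and transgenic Six2-Cre mice on a mixed background, and give mixed background for all 6 samples. Six2-Cre acts in the progenitors of nephron epithelia and so leaves the collecting duct, vessels, stroma and immune cells of the kidney unrecombined. The sources used here state neither the number of conditional Mpp5 alleles in each sample nor whether each sample was a separate animal. The p-values therefore reflect the spread among these 6 samples alone. Values are log2 after RMA, the deposited normalization. A difference is the Cre-positive mean less the Cre-negative mean, followed by ± its limma SE, with n = 3 in each group.

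P450 enzymes are heme proteins that use molecular oxygen to hydroxylate or epoxidise small lipophilic molecules. Members of the endoplasmic reticulum take electrons from P450 reductase and cytochrome b5, and mitochondrial members take them from ferredoxin. In the kidney they are best known in the proximal tubule, where family 4 and subfamilies 2C and 2J convert arachidonic acid into hydroxy and epoxy lipids that act on salt transport and vessel tone. Families 1 to 3 mainly oxidise drugs and other foreign compounds, and the remaining families act on sterols, steroid hormones, bile acids and retinoic acid.

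The share of P450 genes called was close to that of all genes, and most calls were falls in family 2 or rises in family 4. At limma adjusted p under 0.05, 20 of the 87 members (23.0%) were called, against 21.8% of all tested genes. Of these, 14 were lower in Cre-positive kidneys (16.1%, against 11.1% of all genes) and 6 were higher (6.90%, against 10.7%). All 12 calls in family 2, which holds 47 members, were falls. In family 4, 5 of 15 members rose and 1 fell. The other calls were a rise in family 1 and a fall in family 26, and 10 families held no call. The median difference was -0.04 over the members and -0.01 over all genes. The groups did not overlap for 25 members (28.7%), against 38.5% of all genes. At an unadjusted p under 0.05, 15 members were lower and 8 higher. Calls were more frequent among bright probe sets. Of the 29 members at or above the median level of all genes 13 were called (44.8%, against 35.0% of all genes at that level), and of the 58 below it 7 (12.1%). Over all genes the calls were likewise mostly bright, with 3887 of 4844 among the 11090 genes at or above that level. The 10 members with the highest levels were Cyp4a31, Cyp2j5, Cyp4a14, Cyp4b1, Cyp2e1, Cyp2d26, Cyp2j11, Cyp2d22, Cyp27a1 and Cyp2c23, of which 4 fell and 6 were not called.

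**Figure D1:**
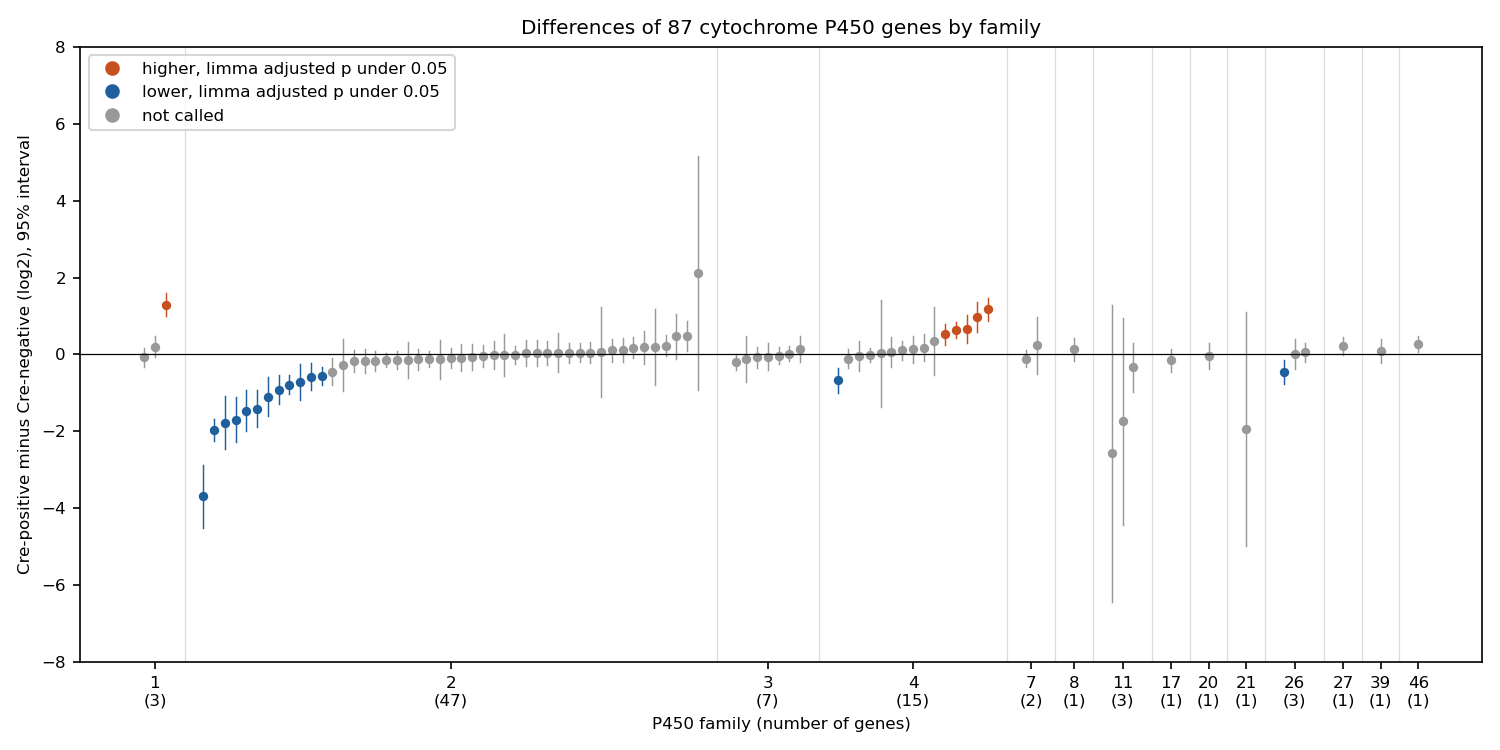
Each point is the difference of 1 of the 87 P450 genes, Cre-positive minus Cre-negative on the log2 scale (vertical axis), with its 95% interval from the limma fit, grouped by P450 family along the horizontal axis and ordered by size within a family. All coloured points of family 2 lie below 0 and 5 of the 6 coloured points of family 4 lie above 0; the widest intervals are those of steroid hormone genes in families 11 and 21 and of Cyp2j13 at the right end of family 2.

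Features of the arrays bear on these genes. Cre-negative replicate 1 had Xist at 10.76 and replicate 2 at 10.70, whereas replicate 3 (4.16) and the Cre-positive arrays (4.0 to 4.29) were low, and 3 Y-linked genes showed the opposite pattern. Thus only 1 Cre-negative array, replicate 3, carried male transcripts as all 3 Cre-positive arrays did, and the difference from that array alone is given where it bears on a result. It equals the estimate with sex as a second factor, under which 10 of the 20 member calls held, beside 1922 of the 4844 calls over all genes (39.7%). The 6 falls that held were those of Cyp2d12, Cyp2j11, Cyp2a4, Cyp2f2, Cyp2c69 and Cyp2j5, and the 4 rises those of Cyp1b1, Cyp4v3, Cyp4f18 and Cyp4f16. The other 10 had limma adjusted p of 0.0524 to 0.423, and their sign could not change, because their groups did not overlap. In the arrays with Xist the 3 Y-linked genes read 3.66 to 4.54, and 30 members stayed at or below 4.54 in all 6 arrays. Proximal tubule markers, whose cells carry many P450 enzymes, fell in 9 of 10 genes with 0 rises, and their mean level was 11.68 to 12.10 in Cre-negative and 10.15 to 10.35 in Cre-positive arrays. Macrophage and myeloid markers rose in 5 of 6 genes with 0 falls, from mean levels of 6.98 to 7.06 to 8.35 to 9.26. In whole kidney RNA, fewer cells of a type and less RNA per cell cannot be told apart, and the part of these shifts in the P450 differences was not tested. Hepatocyte markers moved both ways, with 2 of 9 higher and 3 lower and mean levels of 6.69 to 6.82 against 6.77 to 7.01, and endothelial markers fell in 3 of 4. Cre-positive replicate 2 stood apart in skeletal muscle markers, with a mean level of 7.18 against 4.71 to 4.93 in the other 5 arrays.

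The largest fall of a single member was that of Cyp2d12, in a subfamily that oxidises drugs and other basic compounds. Cyp2d12 (probe set 17313599, Entrez gene 380997) read 8.78, 8.56 and 9.0 in Cre-negative replicates 1, 2 and 3 and 4.64, 4.59 and 6.0 in the corresponding Cre-positive replicates. Cre-positive replicate 3 was the highest of its group and still below every Cre-negative array. The difference was -3.70 ± 0.35, or 13-fold lower, with limma adjusted p = 0.000421. Cyp2d26 was at 11.22, 11.30 and 10.83 in Cre-negative and 9.65, 8.82 and 9.79 in Cre-positive arrays, a fall of 3.24-fold (-1.70 ± 0.25, limma adjusted p = 0.00278). Here Cre-positive replicate 2 was the lowest array, and against the male Cre-negative array alone the difference was -1.41 (limma adjusted p = 0.0524 with sex as a second factor). The other 7 members of 2D did not pass. Cyp2d22, at 9.45, 9.36 and 8.77 and 10.19, 9.33 and 9.47, was highest in Cre-positive replicate 1, and its groups overlapped (0.47 ± 0.26). Cyp2d12 and Cyp2d26 belong to 1 run of 4 P450 genes with no other protein-coding gene between them in the RefSeq gene order, and the 2 members between them, Cyp2d34 and Cyp2d40, were not called. These genes are close relatives, so the assignment of a probe set to 1 of them is uncertain.

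The epoxygenase subfamilies 2C and 2J also held falls, at shares not far from that of all genes called. In 2C 3 of 14 members were called (21.4%) and in 2J 2 of 7 (28.6%), all lower. Of all tested genes 21.8% were called, and 11.1% were called lower. Cyp2c23 (probe set 17365001, Entrez gene 226143), an arachidonic acid epoxygenase of the kidney, was at 9.97, 10.26 and 9.19 in Cre-negative and 7.77, 7.78 and 8.52 in Cre-positive arrays. Cre-negative replicate 3 was the lowest control and Cre-positive replicate 3 the highest of its group, with a gap between them. The fall was 3.44-fold (-1.78 ± 0.30, limma adjusted p = 0.00472), and -1.17 when set against the male control (limma adjusted p = 0.0616 with sex as a second factor). Cyp2c55 read 8.57, 8.27 and 8.09 in Cre-negative and 6.74, 7.60 and 7.29 in Cre-positive arrays (-1.10 ± 0.22, limma adjusted p = 0.00990), and 0.140 was its adjusted p with sex as a second factor. A further Cyp2c55 row read 3.12 to 3.64 in the 6 arrays with a difference of -0.08, and the mean of both rows gave a smaller fall that was still called (-0.59, limma adjusted p = 0.0162). Cyp2c69 fell from 4.55, 4.27 and 4.77 to 3.34, 3.80 and 3.68 (-0.92 ± 0.16, limma adjusted p = 0.00577), and all 3 Cre-positive arrays and 1 Cre-negative array lay at or below 4.54. The remaining 11 of the 14 members of 2C did not pass and differed by -0.27 to 0.18.

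Cyp2j11 (probe set 17427367, Entrez gene 100066) and Cyp2j5 (probe set 17427414, Entrez gene 13109), the latter an abundant kidney epoxygenase, fell with little spread. Cyp2j11 was at 11.14, 11.08 and 11.05 in Cre-negative arrays and at 9.22, 8.86 and 9.30 in Cre-positive arrays, a fall of 3.9-fold (-1.96 ± 0.12, limma adjusted p = 9.15e-05). Its 3 Cre-negative values lay within 0.1 of each other, whichever the sex of the array. Cyp2j5 stood at 12.58, 12.49 and 12.75 and 11.72, 11.95 and 11.77 (-0.79 ± 0.11, limma adjusted p = 0.00178), a bright probe set in all arrays, so that a 1.73-fold fall was well outside the spread. The other 5 members of the subfamily were not called. Cyp2j6 was nearly level, at 8.74, 8.75 and 8.80 and 8.64, 8.59 and 8.59, although its groups did not overlap (-0.15 ± 0.08, limma adjusted p = 0.208). Cyp2j9 differed by 0.23 ± 0.12 with overlapping groups. Cyp2j8, with a difference of -0.45 ± 0.16, had limma adjusted p = 0.0810, and passed without Cre-negative replicate 3 (-0.59, adjusted p = 0.0343) or without Cre-positive replicate 1 (-0.57, adjusted p = 0.0429). The replicate number as a block likewise gave limma adjusted p = 0.0462 for Cyp2j8. Against the male Cre-negative array, replicate 3, its difference was smaller, at -0.16, and it did not pass with sex as a second factor. Without that array both controls carried Xist, so sex and Cre label could not be told apart. The 7 genes of the subfamily form 1 uninterrupted run, in the order Cyp2j13, Cyp2j12, Cyp2j11, Cyp2j8, Cyp2j6, Cyp2j9 and Cyp2j5, so that genes with a fall lay beside genes without a call.

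**Figure D2:**
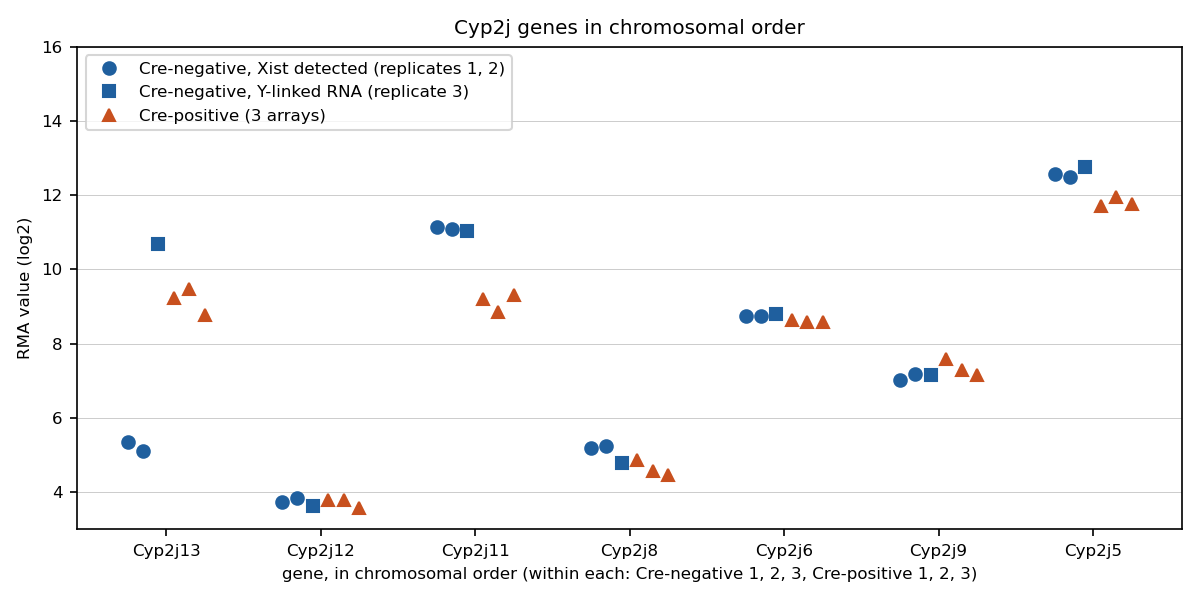
RMA values on the log2 scale (vertical axis) of the 7 Cyp2j genes in their chromosomal order (horizontal axis), with each point 1 array. Cyp2j11 and Cyp2j5 sit lower in all 3 Cre-positive arrays, and Cyp2j13 is low only in the 2 arrays with Xist.

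Cyp2j13 was split by the sex of the controls. It was at 5.35 and 5.10 in the Cre-negative arrays with Xist, at 10.68 in the male Cre-negative array and at 9.24, 9.48 and 8.76 in Cre-positive arrays. The comparison over all arrays gave 2.12 ± 1.31 (95% interval -0.93 to 5.16, limma adjusted p = 0.317). Against the male Cre-negative array the sign was the opposite, at -1.52 (limma adjusted p = 0.0182 with sex as a second factor), and without that array the difference was 3.94 (adjusted p = 0.000223). Without it both controls carried Xist and all Cre-positive arrays male transcripts, so sex and Cre label could not be told apart there. The sequences upstream of Cyp2j11, Cyp2j5 and Cyp2j13 are printed because these neighbours of 1 subfamily differed in level and in whether they were called. They are the 250 bases before the first listed start of each gene, from RefSeq (GRCm38.p6), 5′ to 3′, with matches to the GC box (GGGCGG) or the TATA box (TATAAA) on either strand in capitals.
Cyp2j11 (chr4:96348681-96348930, minus strand): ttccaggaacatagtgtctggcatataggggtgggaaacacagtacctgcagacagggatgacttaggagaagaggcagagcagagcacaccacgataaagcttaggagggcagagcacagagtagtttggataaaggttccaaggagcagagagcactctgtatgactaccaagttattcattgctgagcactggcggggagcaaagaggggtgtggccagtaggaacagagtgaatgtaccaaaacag
Cyp2j5 (chr4:96664120-96664369, minus strand): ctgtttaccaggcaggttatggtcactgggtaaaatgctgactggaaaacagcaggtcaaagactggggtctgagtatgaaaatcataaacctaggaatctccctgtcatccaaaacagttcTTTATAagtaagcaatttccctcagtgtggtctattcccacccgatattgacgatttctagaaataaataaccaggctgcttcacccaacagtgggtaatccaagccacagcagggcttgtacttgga
Cyp2j13 (chr4:96077541-96077790, minus strand): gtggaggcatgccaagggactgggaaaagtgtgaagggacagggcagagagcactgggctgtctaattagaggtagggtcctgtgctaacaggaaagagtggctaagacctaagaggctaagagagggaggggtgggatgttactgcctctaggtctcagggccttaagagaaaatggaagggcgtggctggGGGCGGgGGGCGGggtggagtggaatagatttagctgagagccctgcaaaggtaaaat
The Cyp2j13 window held 2 GC boxes side by side, the Cyp2j5 window 1 TATA box, read on the opposite strand, and the Cyp2j11 window neither.

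In subfamily 2A, Cyp2a4, a testosterone hydroxylase, and Cyp2a5, a coumarin hydroxylase, were both called lower. Cyp2a4 (probe set 17475399, Entrez gene 13086) was at 6.94, 7.03 and 7.49 in Cre-negative and 6.15, 5.64 and 5.26 in Cre-positive arrays, a fall of 2.77-fold (-1.47 ± 0.23, limma adjusted p = 0.00369). All 3 Cre-positive values were below the lowest control by more than the control group's own range. Cyp2a5 (probe set 17475469, Entrez gene 13087) stood at 3.96, 3.68 and 3.54 and 3.42, 2.99 and 3.01 (-0.59 ± 0.15, limma adjusted p = 0.0298). It was the only called member that lay at or below 4.54 in every array, where Y-linked genes lie in arrays with Xist. Its call was lost without Cre-negative replicate 1 (-0.47, adjusted p = 0.10), Cre-negative replicate 2 (-0.61, adjusted p = 0.0713), Cre-positive replicate 2 (-0.51, adjusted p = 0.101) or Cre-positive replicate 3 (-0.52, adjusted p = 0.0777). The pair is shown as the closest called paralogues by upstream sequence. Of the 250 bases, 245 were identical in an alignment with 4 substituted and 2 gapped positions, and capitals mark the bases that differ (RefSeq, GRCm38.p6).
Cyp2a4 (chr7:26306942-26307191, plus strand): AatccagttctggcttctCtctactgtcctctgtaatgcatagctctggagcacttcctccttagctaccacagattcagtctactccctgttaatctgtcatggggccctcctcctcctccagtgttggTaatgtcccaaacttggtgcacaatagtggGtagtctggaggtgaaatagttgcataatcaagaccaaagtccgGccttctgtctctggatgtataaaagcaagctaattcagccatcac
Cyp2a5 (chr7:26835089-26835338, plus strand): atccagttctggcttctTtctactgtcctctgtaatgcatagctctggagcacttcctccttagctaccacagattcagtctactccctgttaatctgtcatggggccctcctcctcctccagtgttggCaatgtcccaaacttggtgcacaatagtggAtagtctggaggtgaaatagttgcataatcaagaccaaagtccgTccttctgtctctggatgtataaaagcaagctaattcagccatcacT
The other 2 members of 2A differed by 0.05 each and were not called. Over all members with an upstream sequence, a closer pair was Cyp2b13 and Cyp2b9, with 248 identical bases, neither of which was called. Cyp2c68 and Cyp2c69 shared 232 bases, and of these only Cyp2c69 was called lower. Such pairs can share probes as well as promoters, so separate responses of their members were not resolved here.

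Cyp2f2 (probe set 17488117, Entrez gene 13107), an enzyme known for oxidising naphthalene in airway club cells, was at 7.67, 8.06 and 8.37 in Cre-negative and 6.84, 6.26 and 6.76 in Cre-positive arrays (-1.41 ± 0.21, limma adjusted p = 0.00274). A further row carrying its symbol read 5.71, 8.63 and 6.08 in Cre-negative and 5.69, 6.21 and 6.75 in Cre-positive arrays, with the high value in Cre-negative replicate 2. With the mean of both rows the fall was no longer called (-1.0, limma adjusted p = 0.104). Cyp2u1, a fatty acid hydroxylase, fell from 8.08, 8.02 and 7.84 to 7.30, 7.52 and 7.45 (-0.56 ± 0.10, limma adjusted p = 0.00715). Cyp2r1, which carries out the first activation step of vitamin D, was at 6.60, 6.67 and 6.14 and 5.44, 5.69 and 6.13 (-0.72 ± 0.20, limma adjusted p = 0.0397). Its highest Cre-positive value, in replicate 3, lay directly below the lowest control. The Cyp2r1 call was lost without Cre-negative replicate 1 (-0.65, adjusted p = 0.126) or 2 (-0.62, adjusted p = 0.123) and without Cre-positive replicate 1 (-0.56, adjusted p = 0.102) or 2 (-0.69, adjusted p = 0.114), and with the replicate number as a block (limma adjusted p = 0.0880). Its difference from the male Cre-negative array was -0.39. Among uncalled members, Cyp2s1 was at 8.62, 8.49 and 8.30 and 9.24, 8.59 and 9.01 (0.48 ± 0.17, limma adjusted p = 0.0828), and it passed without Cre-positive replicate 2 (0.66, adjusted p = 0.0197). None of the 5 members of 2B or the 7 of 3A was called. Their differences ran from -0.18 to 0.11 and from -0.20 to 0.15, and 10 of the 12 stayed at or below 4.54 in all arrays. These subfamilies hold the drug-metabolising enzymes that are typical of liver.

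**Figure D3:**
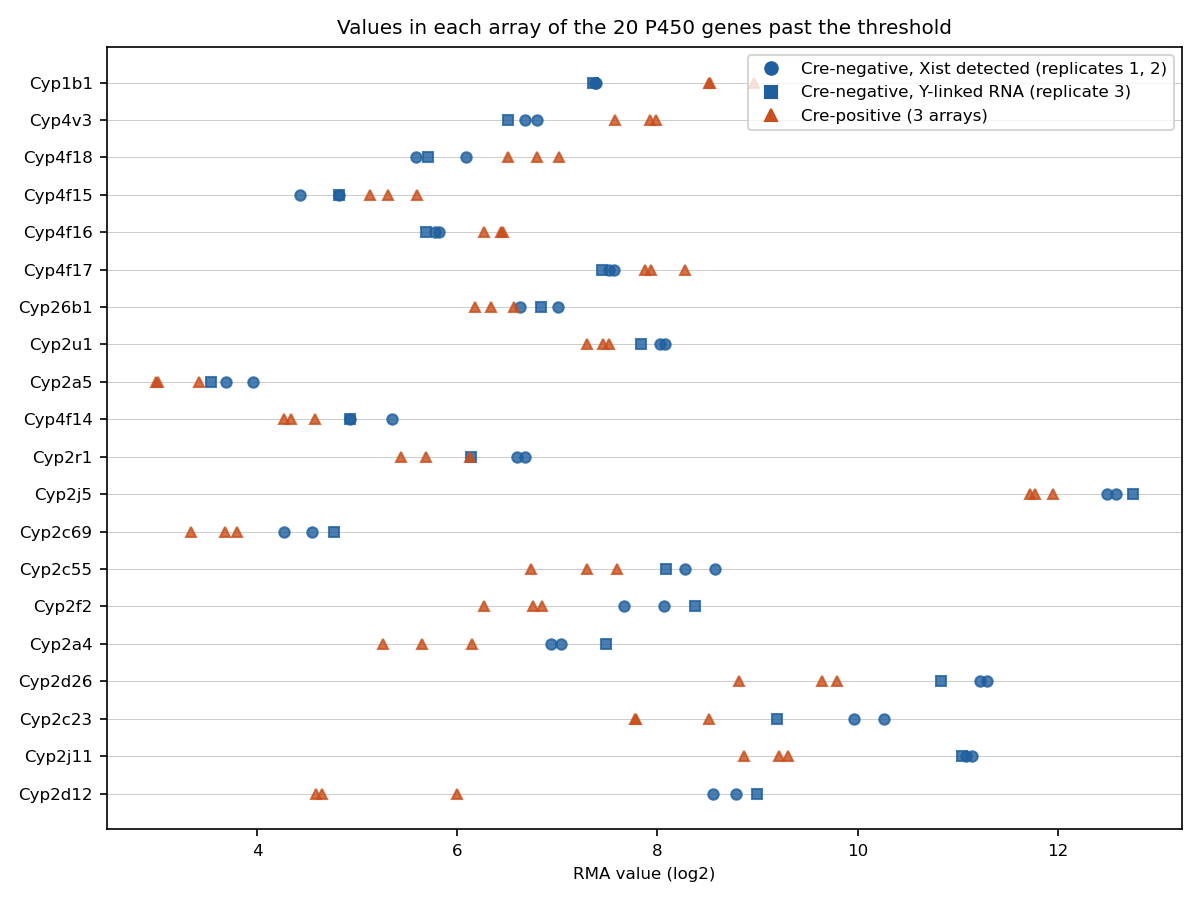
RMA values on the log2 scale (horizontal axis) of the 20 P450 genes past the limma threshold (rows), with each point 1 array and genes ordered by their difference from the largest fall at the bottom to the largest rise at the top. The Cre-positive triangles lie left of all Cre-negative points in the lower 14 rows and right of them in the upper 6 rows; the closest approach is in Cyp2r1, and Cyp2d12 shows the widest gap.

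Family 4, whose members hydroxylate the far end of fatty acids and eicosanoids, held 5 of the 6 rises (33.3% of its members, against 10.7% of all genes called higher). Cyp4v3 (probe set 17509069, Entrez gene 102294), the mouse counterpart of a human corneoretinal dystrophy gene, was at 6.67, 6.80 and 6.51 in Cre-negative and 7.92, 7.58 and 7.98 in Cre-positive arrays, a rise of 2.25-fold (1.17 ± 0.13, limma adjusted p = 0.000873). Cyp4f18 (probe set 17510462, Entrez gene 72054), which acts on the chemoattractant leukotriene B4 and is known from neutrophils, rose from 6.08, 5.58 and 5.71 to 6.50, 7.02 and 6.79 (0.98 ± 0.17, limma adjusted p = 0.00542). Both kept their call with sex as a second factor (limma adjusted p = 0.00845 and 0.0465). Of 6 myeloid markers, 5 rose in the same arrays, Itgam among them from 5.47, 4.80 and 5.18 to 7.20, 7.48 and 7.99, and their part in the rise of Cyp4f18 was not tested.

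The other rises of family 4 were in neighbouring genes. Cyp4f16 was at 5.77, 5.82 and 5.69 and 6.44, 6.45 and 6.26 (0.63 ± 0.09, limma adjusted p = 0.00256). Cyp4f17 was at 7.52, 7.56 and 7.44 and 8.27, 7.87 and 7.93 (0.52 ± 0.12, limma adjusted p = 0.0183). Cyp4f15 was at 4.43, 4.82 and 4.82 and 5.60, 5.31 and 5.13 (0.66 ± 0.15, limma adjusted p = 0.0194). These 3 genes lie in a run of 6 Cyp4f genes in which the other 3 members were not called, and 0 fell. In the adjacent pair of Cyp4f14 and Cyp4f13 the first fell and the second was not called. Cyp4f14, a leukotriene B4 hydroxylase, was at 5.34, 4.93 and 4.93 and 4.58, 4.33 and 4.27 (-0.67 ± 0.14, limma adjusted p = 0.0124). The groups overlapped in none of these 4 genes. The call of Cyp4f15 was lost without Cre-negative replicate 1 (0.53, adjusted p = 0.0628), without Cre-positive replicate 2 (0.68, adjusted p = 0.0550) and with the replicate number as a block (limma adjusted p = 0.0553). That of Cyp4f17 was lost without Cre-negative replicate 1 (0.52, adjusted p = 0.0592) or 3 (0.48, adjusted p = 0.0647).

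Subfamily 4A, the fatty acid hydroxylases under control of the lipid sensor PPAR-alpha, had no call among the 3 genes that fit the symbol pattern. Cyp4a12a and Cyp4a12b lie outside that pattern and are given further below, where Cyp4a12b was called higher. Cyp4a31 was bright in all arrays, at 12.30, 12.31 and 12.42 and 12.71, 12.15 and 12.01, with a 95% interval of -0.45 to 0.35 for the difference. Cyp4a14 stood at 11.64, 11.65 and 10.75 in Cre-negative and 12.53, 11.06 and 11.50 in Cre-positive arrays, and its interval, -0.55 to 1.24, did not exclude a change in either direction. Cre-positive replicate 1 was the highest array for both genes.

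Cyp1b1 (probe set 17347448, Entrez gene 13078) had the largest rise of all called members. This enzyme of steroids and aromatic hydrocarbons, a target of the aryl hydrocarbon receptor, was at 7.38, 7.39 and 7.35 in Cre-negative and 8.52, 8.52 and 8.97 in Cre-positive arrays. The 3 controls lay within 0.04 of each other, and every Cre-positive array was above them by at least 1. The rise was 2.46-fold (1.30 ± 0.13, limma adjusted p = 0.000539), and 1.32 when set against the male control (limma adjusted p = 0.0112 with sex as a second factor). The receptor gene Ahr itself was higher, at 7.90, 7.86 and 7.77 and 8.42, 8.30 and 8.49 (0.56 ± 0.09, limma adjusted p = 0.00378). Cyp1a1 and Cyp1a2, the other members of family 1 and also targets of this receptor, read 4.67 to 5.10 in all arrays and were not called. Without Cre-positive replicate 3, Cyp1a2 passed (0.33, adjusted p = 0.0395).

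Of 12 motifs searched upstream of the members, the GC box and the TATA box are described first because their counts in risen and fallen genes were far apart, a choice made after the counts were seen. RefSeq held an upstream window for 68 of the 87 members, among them 5 of the 6 that rose and 11 of the 14 that fell. Both strands were searched and matches of different motifs could overlap. The GC box GGGCGG, a binding motif of Sp1-type factors, was in 5 of the 5 windows of risen genes (Cyp1b1, Cyp4f15, Cyp4f16, Cyp4f18 and Cyp4v3), in 1 of 11 of fallen genes (Cyp26b1), in 10 of 52 of uncalled members and in 32.9% of the windows of 27025 genes. The TATA box TATAAA was in 0 of 5, 6 of 11, 18 of 52 and 13% of the same windows. GTTAAT, a motif of the kidney and liver factor HNF1, was in 0 of 5 risen and 4 of 11 fallen genes (Cyp2a4, Cyp2a5, Cyp2c69 and Cyp2d26). It was in 3 of 52 uncalled members and in 6.52% of all windows. CAAAGTCCA, a motif of HNF4, was in 0 of 5 risen genes, 1 of 11 fallen genes and 7 of 52 uncalled members, against 0.381% of all windows. The core GCGTG, bound by the aryl hydrocarbon receptor with its partner, was in 3 of 5, 1 of 11 and 10 of 52, against 28.2% of all windows. CCAAT was in 3 of 5, 4 of 11 and 20 of 52, against 34.5%. No member window held the D box TTATGTAA, the C/EBP palindrome TTGCGCAAT, the direct repeat of nuclear receptors with a 1-base spacer or the NF-kappaB element, which are present in 0.0444% to 0.862% of all windows. TTCNNNGAA and TGTTCT were each in 1 of 11 windows of fallen genes and in 0 of 5 of risen ones, against 7.18% and 16.2% of all windows. In uncalled members they were in 3 and 13 of 52 windows. Related genes share upstream sequence, so these windows are not independent, and the counts are descriptions of letters.

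Below are 2 windows of risen genes outside subfamily 4F, with GC boxes and GCGTG cores in capitals, then Cyp4f15, which rose, and its relative Cyp4f14, which fell, with GC boxes and CCAAT boxes in capitals (RefSeq, GRCm38.p6, 250 bases before the first listed start).
Cyp1b1 (chr17:79715062-79715311, minus strand): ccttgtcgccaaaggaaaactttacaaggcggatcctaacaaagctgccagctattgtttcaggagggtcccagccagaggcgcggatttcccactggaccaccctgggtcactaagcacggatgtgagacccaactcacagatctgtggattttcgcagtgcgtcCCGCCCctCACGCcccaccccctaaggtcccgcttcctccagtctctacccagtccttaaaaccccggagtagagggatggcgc
Cyp4v3 (chr8:45333164-45333413, minus strand): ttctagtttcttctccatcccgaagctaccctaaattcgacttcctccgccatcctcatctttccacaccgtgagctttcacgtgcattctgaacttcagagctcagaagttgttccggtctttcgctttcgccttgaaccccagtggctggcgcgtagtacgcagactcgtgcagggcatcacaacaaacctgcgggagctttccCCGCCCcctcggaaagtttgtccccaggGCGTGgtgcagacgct
Cyp4f15 (chr17:32685409-32685658, plus strand): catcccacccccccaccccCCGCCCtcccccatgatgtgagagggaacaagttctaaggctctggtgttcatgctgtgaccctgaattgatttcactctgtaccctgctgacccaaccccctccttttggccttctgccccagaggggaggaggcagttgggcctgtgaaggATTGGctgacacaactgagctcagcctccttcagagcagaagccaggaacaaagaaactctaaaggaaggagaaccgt
Cyp4f14 (chr17:32917357-32917606, minus strand): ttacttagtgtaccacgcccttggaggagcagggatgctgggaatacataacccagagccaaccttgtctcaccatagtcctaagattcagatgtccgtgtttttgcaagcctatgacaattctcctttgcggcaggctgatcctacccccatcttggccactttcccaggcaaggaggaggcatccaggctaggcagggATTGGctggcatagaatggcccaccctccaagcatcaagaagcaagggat
Both Cyp4f windows carry an inverted CCAAT box, and a GC box is found in that of Cyp4f15 alone.

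Besides Cyp2j13, 4 members were at least 1 log2 unit higher in the male Cre-negative array than in both Cre-negative arrays with Xist. They were Cyp4b1, Cyp2e1, Cyp2d9 and Cyp7b1, against 50 such genes among all 22180, and 0 members were lower there by as much. Cyp4b1, a fatty acid and xenobiotic hydroxylase, and Cyp2e1, the ethanol-oxidising P450, are known to be higher in male than in female mouse kidney. Cyp4b1 was at 9.95, 10.32 and 12.40 in Cre-negative and 11.58, 10.56 and 10.62 in Cre-positive arrays. Cyp2e1 was at 9.91, 10.23 and 11.78 and 10.65, 11.02 and 10.80. In both genes every Cre-positive array lay between the male control and the controls with Xist. Cyp2d9 read 6.82, 6.99 and 8.48 and 8.38, 6.85 and 7.21, with Cre-positive replicate 1 close to the male control and replicate 2 among the others. Cyp7b1, an oxysterol hydroxylase, was at 6.10, 6.41 and 7.53 and 6.93, 6.83 and 6.99. Over all arrays none of the 4 was called, with differences of 0.03, 0.18, 0.05 and 0.23. Against the male control the differences were -1.48, -0.96, -0.99 and -0.62, and with sex as a second factor limma gave adjusted p = 0.0639, 0.0271, 0.305 and 0.0609. Choosing genes for a high value in that 1 array favours a lower Cre-positive level, and the spread of male controls is not known from 1 array. Without the male control, both remaining controls carried Xist, so sex and Cre label could not be told apart. In that set Cyp2e1 (0.76, limma adjusted p = 0.0183) and Cyp7b1 (0.66, limma adjusted p = 0.0158) were called higher. The direction of these genes between the groups therefore depends on which control arrays are used.

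**Figure D4:**
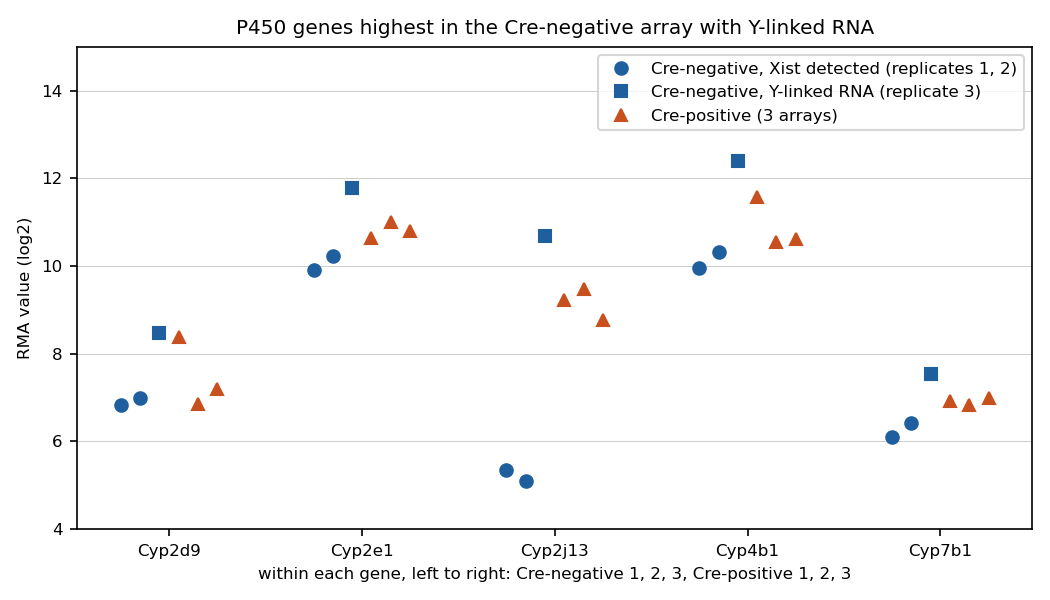
RMA values on the log2 scale (vertical axis) of the 5 P450 genes at least 1 log2 unit higher in the Cre-negative array with Y-linked RNA than in the other Cre-negative arrays (horizontal axis), each point 1 array. The square marks the male control; all Cre-positive triangles lie below it, and above the controls with Xist except 1 array of Cyp2d9.

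Of the 5 genes of steroid hormone synthesis 3 were high in a single array and none was called between the groups. Cyp11b1, which makes corticosterone in the adrenal cortex, was at 11.10 in Cre-negative replicate 2, 4.24 and 3.99 in the other controls and 3.85, 3.91 and 3.85 in Cre-positive arrays. Cyp21a1, the steroid hydroxylase one step before it, was at 9.82 in that array and at 4.32, 4.31 and 4.18, 4.40 and 4.02 elsewhere. Cyp11a1, which cleaves the cholesterol side chain, was at 9.59 there and at 4.75, 4.69 and 4.56, 4.71 and 4.51 elsewhere. These 3 genes and Cyp2j13 were the 4 members that exceeded the next array by 1 log2 unit or more, a pattern of 119 genes among all tested, 25 of them highest in Cre-negative replicate 2. Cyp11b2, aldosterone synthase, read 5.28 in that array and 4.30, 4.23 and 4.30, 4.48 and 4.0 in the others. Cyp17a1, a gonadal hydroxylase that the adult mouse adrenal lacks, was not raised there, at 5.28, 4.93 and 4.84 and 4.93, 4.85 and 4.79. A second probe set of Cyp11a1 read 4.32 to 4.67 in all 6 arrays, Cre-negative replicate 2 included. Between the groups none of the 5 passed, although the Cyp11b1 values did not overlap, with differences from -2.57 ± 1.67 to -0.16 ± 0.13 and limma adjusted p from 0.340 to 0.446, and against the male control they lay between -0.12 and 0.03. The mean of 6 adrenal cortex markers was 8.56 in Cre-negative replicate 2 against 5.65 to 5.75 in the other 5 arrays, with Star at 10.69 and Hsd3b1 at 10.28. Without Cre-negative replicate 2 the members called were 6 higher and 12 lower.

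**Figure D5:**
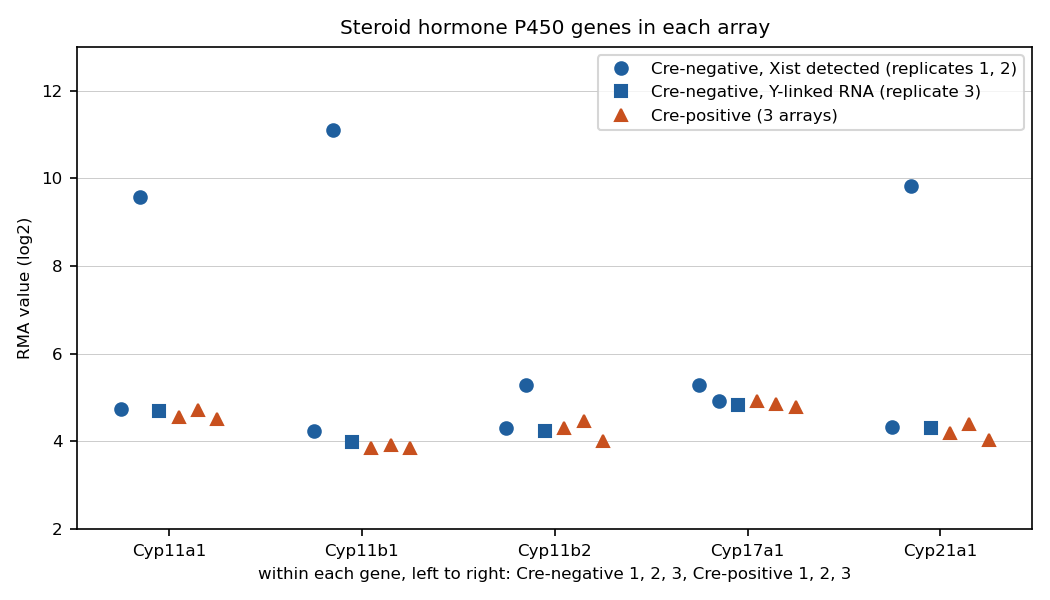
RMA values on the log2 scale (vertical axis) of the 5 steroid hormone P450 genes (horizontal axis), each point 1 array in the order Cre-negative 1, 2, 3 and Cre-positive 1, 2, 3. Cre-negative replicate 2 stands at 9.59 to 11.10 for Cyp11a1, Cyp11b1 and Cyp21a1, at 5.28 for Cyp11b2 and within the other arrays for Cyp17a1.

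Among the enzymes of sterols and retinoids 1 fall was called. None of the 6 cholesterol and bile acid members passed. Cyp27a1, a mitochondrial sterol hydroxylase, was at 9.07, 9.13 and 9.22 and 9.51, 9.23 and 9.31, with groups that did not overlap by a small margin (0.21 ± 0.10, limma adjusted p = 0.200). Cyp46a1, a cholesterol hydroxylase known from neurons, was at 6.09, 6.05 and 6.20 and 6.28, 6.42 and 6.46 (0.27 ± 0.09, limma adjusted p = 0.0684). Cyp26b1, which breaks down retinoic acid, fell from 7.01, 6.63 and 6.84 to 6.57, 6.34 and 6.18 (-0.46 ± 0.14, limma adjusted p = 0.0455), and Cyp26a1 and Cyp26c1 were not called. The Cyp26b1 call was lost without Cre-negative replicate 1 (-0.37, adjusted p = 0.148) or 3 (-0.46, adjusted p = 0.113) and without Cre-positive replicate 2 (-0.45, adjusted p = 0.119) or 3 (-0.37, adjusted p = 0.107).

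Of 39 measured genes that serve or regulate P450 enzymes, 12 were lower and 4 higher (41.0%, against 21.8% of all genes), with a median difference of -0.22. Their mean level was 8.34 to 8.57 over the arrays, above the median level of 6.34 over all genes. Of all genes at or above that median, 35.0% were called. With sex as a second factor 9 of these 16 calls held. Those of Cyb5b, Alad, Urod, Hnf4a, Ppara, Ppard and Pparg did not (limma adjusted p of 0.0614 to 0.242). Of 6 electron donors listed 4 were measured, and Por, the P450 reductase gene, and Fdxr were not among them. The mitochondrial ferredoxin gene Fdx1 fell from 7.70, 7.90 and 7.85 to 7.31, 7.17 and 7.09 (-0.63 ± 0.10, limma adjusted p = 0.00345). The cytochrome b5 gene Cyb5b fell (-0.48 ± 0.12, limma adjusted p = 0.0292) while Cyb5a (-0.39 ± 0.12) and Cyb5r3 (0.14 ± 0.13) did not pass. Of 9 genes of heme synthesis and loss 4 fell, Uros (-0.92 ± 0.15), Alad (-0.59 ± 0.10), Cpox (-0.57 ± 0.13) and Urod (-0.30 ± 0.09), all enzymes of synthesis. Hmox1, the heme oxygenase that degrades heme and is induced by stress, rose from 6.83, 6.73 and 7.14 to 8.67, 8.31 and 7.93 (1.41 ± 0.19, limma adjusted p = 0.00192). Alas1, the first enzyme of the pathway, was at 0.38 ± 0.17 and did not pass. Ephx1, the microsomal epoxide hydrolase, rose (0.59 ± 0.11, limma adjusted p = 0.00705), and Ephx2, the soluble hydrolase of epoxy fatty acids, at 9.90, 9.88 and 10.70 and 9.88, 9.45 and 9.31, did not pass. Of 20 nuclear receptors and other regulators 6 fell and 2 rose. The falls included Nr0b2 (-0.89 ± 0.10), Nr1h3, the liver X receptor alpha gene (-0.64 ± 0.09), Ppard (-0.66 ± 0.11), Ppara (-0.54 ± 0.12), Hlf (-0.59 ± 0.08) and Hnf4a, a regulator of proximal tubule genes (-0.42 ± 0.11). The rises were those of Ahr, given with Cyp1b1, and Pparg (0.62 ± 0.12). The xenobiotic receptor genes Nr1i2 (-0.45 ± 0.20) and Nr1i3 (0.06 ± 0.09) did not pass. Several of these genes are known to be active in the proximal tubule, whose markers were lower in the same arrays, and the part of that shift was not tested.

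P450 genes whose symbols fall outside the pattern of the rule gave 2 further calls among 5 measured genes. Cyp51, the lanosterol demethylase of cholesterol synthesis, was at 9.51, 9.85 and 9.21 in Cre-negative and 6.25, 6.56 and 7.0 in Cre-positive arrays (-2.92 ± 0.22, limma adjusted p = 0.000152). Cyp4a12b, an arachidonic acid hydroxylase known to be male-typical in mouse kidney, was at 5.78, 5.82 and 7.60 and 9.62, 8.80 and 8.85 (2.69 ± 0.48, limma adjusted p = 0.00595). The male control was the highest Cre-negative array, and the difference from it was 1.48. In contrast to the 5 members that were high in the male control, all 3 Cre-positive arrays of Cyp4a12b lay above that control. Its neighbour Cyp4a12a was at 5.28, 5.68 and 5.87 and 7.60, 6.0 and 6.22 and did not pass (1.0 ± 0.39). Cyp4a12a and Cyp4a12b are nearly identical genes, so their probe sets may not separate them. A further 6 rows name several genes of which at least 1 is a P450, and these were not used.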

How the data were processed

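Total RNA of 6 mouse kidney samples was hybridised to Affymetrix whole-transcript arrays, with the WT Plus protocol per the labels. The authors deposited 1 value per probe set and array. The tools listed in the submitters' processing notes are Partek and RMA, and the deposited values (1.89 to 13.59) were taken as log2, which RMA gives. Array medians were 5.55 to 5.64. All columns belonged to the 6 samples.

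Of 41345 probe sets, 23521 carried 1 gene symbol, 1814 several and 16010 none. The row with the highest mean stood for each of 22180 genes. limma (version 3.58.1, R 4.3.3) compared the groups over all genes with Benjamini-Hochberg adjustment, tested on simulated data. An exact permutation test of 3 against 3 arrays cannot go below p = 0.1. Same-numbered samples did not deviate together (correlations of 0.03, -0.04 and -0.01). Upstream windows and gene order came from RefSeq tables, and promoter motifs were counted on both strands. Alternatives covered the sex of the array, the replicate number as a block, other scalings, filters, probe set choices and single arrays left out. The members and lists were chosen with earlier results of these data known. Named were the called members with the largest changes, the 10 brightest, steroid genes, single-array peaks and relatives of called genes. Cyp1a1, Cyp1a2, Cyp2d9, Cyp2s1, Cyp7b1 and Cyp46a1 were partly chosen after their values were seen. With 3 arrays per group the number of arrays limits the precision.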

Additional observations from a re-analysis of the deposited data

How the results depend on the processing

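The 20 called members kept their sign under all 17 alternatives in which they were tested. Only the other scalings and the mean of several rows could have changed it. The groups did not overlap for any of these 20, so subsets of arrays and the sex factor must keep the sign. The remaining settings leave the difference itself unchanged. The 6 rises became 3 without genes below the median level, 2 with the male arrays alone and 3 without both arrays that carry adrenal or muscle transcripts. Without both of those arrays 8 falls were called. With sex as a second factor 6 of the 14 falls held. In that fit 8 members were called lower, because Cyp2e1 and Cyp2j13, uncalled in the main fit, were 2 new calls. The filter on the median level left 13 of the 20 calls to be tested, and all 13 were kept. The sex factor, the male arrays alone and the set without both of those arrays have fewer arrays or residual degrees of freedom. All genes called fell likewise there, from 4844 to 2030, 1101 and 1853. With single arrays left out there were 4 to 8 rises and 11 to 14 falls. The median difference of -0.04 became 0.029 without genes below the median level, and -0.076 to 0.074 with single arrays left out. With the replicate number as a block, 5 rises and 14 falls were called and 18 of the 20 calls were kept. Against the male arrays alone or with sex as a second factor, 24 of the 67 uncalled members changed sign. They included Cyp11b2 (0.027), Cyp17a1 (0.022), Cyp2d9 (-0.99), Cyp2e1 (-0.96), Cyp2j13 (-1.52), Cyp4b1 (-1.48) and Cyp7b1 (-0.62), and other genes named in the text. The cause was not tested. Cyp2d9 became -0.0018 after a second quantile step, and median centring gave -0.0099 for Cyp2d9 and -0.033 for Cyp4b1. Without both arrays with other tissue, Cyp2e1 was -0.12, Cyp4a31 0.0030 and Cyp4b1 -0.075. With single arrays left out, Cyp2d9 ranged from -0.40 to 0.58, Cyp2e1 from -0.18 to 0.76, Cyp4a14 from -0.073 to 0.66, Cyp4a31 from -0.26 to 0.090, Cyp4b1 from -0.44 to 0.78 and Cyp7b1 from -0.058 to 0.66. With only 3 arrays per group, and 30 members near the level of Y-linked genes in arrays with Xist, small differences could not be resolved.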
